A study of Mus musculus with 7 samples.

Results

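The SR family comprises the serine- and arginine-rich splicing factors, and 10 of its genes (Srsf1, Srsf2, Srsf3, Srsf4, Srsf5, Srsf6, Srsf7, Srsf9, Srsf10 and Srsf11) were followed in bone marrow stromal cells of mice treated with an inhibitor of fibroblast activation protein (FAP). The members were taken by gene symbol, and all 10 matched 1 row each of the 53801 genes in the count tables. The family was chosen by the level of Srsf10, which ranks high in this same comparison of treated with control mice. Differences of the members between the groups are therefore given as a description, and no test of them is read as a result.

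The groups were 4 mice that received the inhibitor, labelled FAPi, and 3 that received the vehicle DPBS, a phosphate-buffered saline. All were male C57BL/6 mice, 8 weeks old at the start, given daily intraperitoneal injections of 100 µl for 35 days, with the inhibitor at 500 µg/kg. No genetic modification is named, and the sources used here do not name the compound. A modified Smart-seq2 library was made from 7000 live Pdgfra+ CD45- Ter119- Tie2- cells of the limb bones of each mouse. Pdgfra marks a mixed stroma, so a library averages reticular cells, osteoblast-lineage cells and any other cells in the gate.

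SR proteins carry an RNA recognition motif at one end and a tail rich in arginine and serine at the other. They bind exons of nascent transcripts and help the spliceosome to find nearby splice sites, and several members also take part in mRNA export and translation. Kinases of the Clk and Srpk families phosphorylate the tail, which controls where the proteins reside and whether they promote splicing. Many SR genes limit their own output by including exons that send their transcript to nonsense-mediated decay (NMD). A count per gene adds up all these isoforms and so measures neither splicing nor protein.

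The tail that gives the family its name was visible in the coding sequences. In the longest complete coding sequence per gene in GENCODE M21, neighbouring arginine and serine codons, in either order, occurred at 4.05 per 100 codons in Srsf9 up to 23.5 in Srsf2. The median over 21584 genes was 0.728, and every member lay above at least 99.4% of them. The 40 codons richest in such pairs are shown for the member with the highest density, for Srsf10, and for the member with the lowest. Capitals mark codons that belong to a pair, and each stretch is 120 bases of coding sequence read 5′ to 3′.
Srsf2 (codons 126 to 165, chr11:116852199-116852318, mm10, minus strand): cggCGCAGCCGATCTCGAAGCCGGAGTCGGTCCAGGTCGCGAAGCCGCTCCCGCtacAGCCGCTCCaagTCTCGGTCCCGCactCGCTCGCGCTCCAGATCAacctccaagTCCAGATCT
Srsf10 (codons 118 to 157, chr4:135863117-135863556, mm10, plus strand, with an intron inside the interval): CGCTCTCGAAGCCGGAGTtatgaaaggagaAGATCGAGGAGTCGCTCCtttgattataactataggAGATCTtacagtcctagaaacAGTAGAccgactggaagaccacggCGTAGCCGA
Srsf9 (codons 171 to 210, chr5:115332275-115332680, mm10, plus strand, with an intron inside the interval): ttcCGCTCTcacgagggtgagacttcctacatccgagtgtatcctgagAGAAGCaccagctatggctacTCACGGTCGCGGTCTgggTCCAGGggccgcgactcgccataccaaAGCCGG
The stretch held 28 pairs in Srsf2, 14 in Srsf10 and 8 in Srsf9. An annotated NMD isoform was present in 9 of the 10 members and a retained-intron isoform in 8, whereas 29.2% and 60.4% of the 11256 tested protein-coding genes have one. Srsf10 was the member with neither.

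The libraries held 7492570 to 10569690 gene counts, so 3 counts corresponded to 0.28 to 0.40 CPM, the count scaled to the library total. All FAPi totals were below all DPBS totals, narrowly so for FAPi replicate 2 against DPBS replicate 2. Fap, the gene of the inhibited enzyme, averaged 193 ± 19.6 CPM in control mice (SD, n = 3) and 235 ± 28.4 CPM in treated mice (SD, n = 4). The reticular stromal markers, all 7 of them tested, summed to 20899 to 27895 CPM over all libraries. Osteoblast markers summed to 12933 to 24950 CPM in DPBS and 11735 to 22143 CPM in FAPi libraries. T and NK cell markers summed to at most 3.68 CPM and macrophage markers to at most 7.23 CPM, while Cd3e, Cd3d and Klrb1c had 0 counts. B cell markers, among them Ebf1, which marrow stroma also expresses, summed to 609.7 to 1070.4 CPM in DPBS and 743 to 1143 CPM in FAPi libraries. Erythroid markers, which the sort should remove, summed to 1632 to 15078 CPM in DPBS and 1521 to 3015 CPM in FAPi libraries. Neutrophil markers summed to 597.8 to 2596 CPM in DPBS and 181 to 604 CPM in FAPi libraries. All 7 tested erythroid and all 8 tested neutrophil markers were estimated lower in FAPi mice, and DPBS replicate 2 had the highest sum of both. No erythroid or neutrophil marker in the tables was at 0 in every library, Alas2 was at 0 in some, and Ptprc, the gene of CD45, stood between 0.268 and 5.26 CPM.

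Transcripts of the 9 tested members were abundant in these libraries. Their mean CPM in DPBS mice stood above that of 77.0% (Srsf9) to 99.3% (Srsf2) of tested genes. Levels differed between members, and several neighbours in the order overlapped. Levels between genes are compared as TMM-normalised CPM per kilobase of annotated exon. In DPBS mice Srsf2 led with 345 ± 162 CPM per kb (SD, n = 3), followed by Srsf11 with 88.6 ± 32.9 CPM per kb, and their ranges did not overlap. Next came Srsf5 at 35.6 ± 4.85 and Srsf9 at 30.8 ± 5.94 CPM per kb, which overlapped each other. Srsf7 (23.1 ± 2.98), Srsf3 (20.4 ± 4.17), Srsf10 (19.9 ± 2.85) and Srsf6 (18.1 ± 3.70 CPM per kb) each overlapped their neighbour in the order. Srsf1 was lower at 9.20 ± 2.73 CPM per kb, and Srsf4 was near 0 at 0.119 ± 0.136 CPM per kb. In FAPi mice the first and last members of this order were the same, and Srsf10 had rank 3 at 54.7 ± 8.30 CPM per kb, overlapping Srsf5 just below it. With the longest transcript as the length, Srsf10 had rank 5 in DPBS and rank 3 in FAPi mice, and the DPBS ranges of Srsf2 and Srsf11 overlapped.

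**Figure D1:**
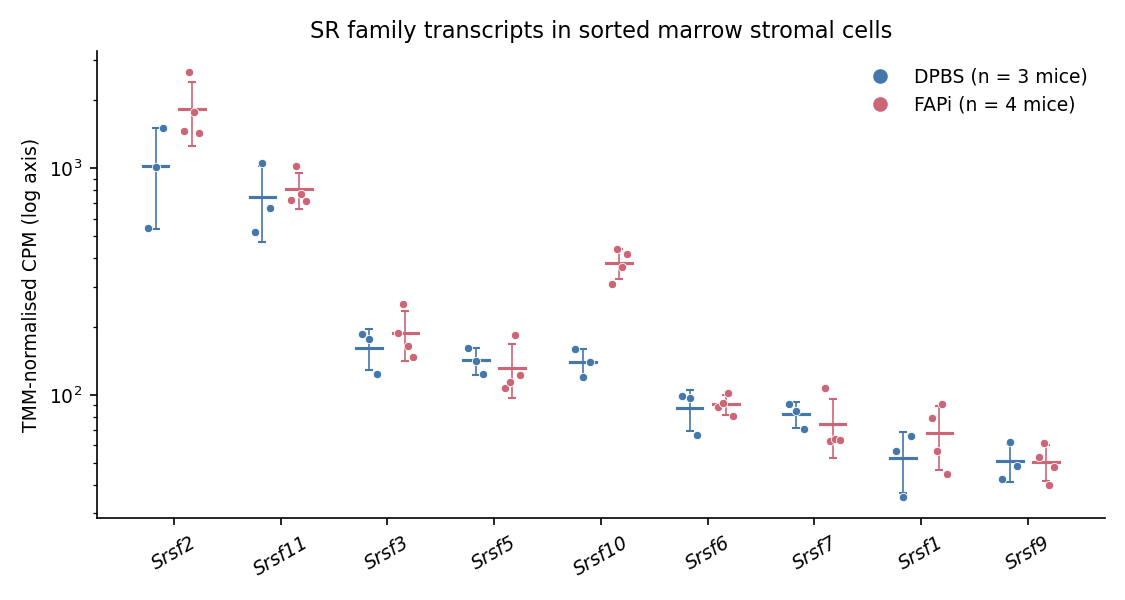
TMM-normalised CPM (log axis) of 9 SR genes in each library, ordered by the DPBS mean, with DPBS in blue (n = 3) and FAPi in red (n = 4), lines at the means and bars of 1 SD. Srsf4 (0 to 1.80 CPM) is not drawn, and Srsf10 is the gene whose points separate by group.

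Srsf10 (ENSMUSG00000028676.17, chr4:135855747-135869908, mm10) encodes SRp38, which represses splicing when dephosphorylated in mitosis or after heat shock and activates it when phosphorylated. In mouse fibroblasts the protein is known to be needed for adipocyte differentiation. Its level was 159.9, 120.0 and 138.9 CPM in DPBS replicates 1 to 3, and 308.9, 439.1, 366.8 and 418.0 CPM in FAPi replicates 1 to 4. Every FAPi library stood above every DPBS library. The means were 139.6 ± 19.9 CPM (SD, n = 3) and 383.2 ± 58.1 CPM (SD, n = 4), a log2 difference of 1.46 ± 0.25 (SE) in FAPi minus DPBS, or 2.74-fold. In these bulk libraries a larger share of cells with the transcript and more transcript per cell cannot be told apart. Without TMM scaling the groups were separate too, as the deposited CPM of Srsf10 was 124 to 189 in DPBS and 319 to 401 in FAPi libraries.

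Values of other measures that differed on average between the groups stand beside this difference. Among the marker sums, Actb and the library totals given here, only the totals did not overlap. Taken singly, 3 of the 8 neutrophil and 0 of the 7 tested erythroid markers did not overlap, against 7.34% of all genes. Erythroid markers summed to 6066, 15078 and 1632 CPM in DPBS replicates 1 to 3 and to 2664, 2467, 3015 and 1521 CPM in FAPi replicates 1 to 4. Neutrophil markers summed to 1744, 2596 and 597.8 CPM in DPBS and to 569.99, 549, 604 and 181 CPM in FAPi replicates. Without DPBS replicate 2, the library highest in both, the log2 difference of Srsf10 was 1.36. Library totals were lower in all FAPi libraries, and Actb, a cytoskeletal gene, took 33502 to 58681 CPM in DPBS and 56171 to 140130.0 CPM in FAPi libraries. With the Actb counts left out, the log2 difference of Srsf10 was 1.457, against 1.457 in the main fit. TMM trims genes of extreme level or ratio before it scales. Leaving out Actb could therefore hardly move this value, and nothing is read from it. On library totals without TMM the log2 difference was 1.26. The part of Actb, of the marker genes and of depth in the Srsf10 difference was not tested.

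Srsf10 also changed its place within the family, a comparison inside each library that needs no scaling between libraries. Its counts made up 8.60%, 4.31% and 4.95% of all SR counts in DPBS replicates 1 to 3. The share was 9.90%, 9.21%, 10.3% and 13.6% in FAPi replicates 1 to 4, above each DPBS library, with 95% Wilson intervals of at most ± 0.452 percentage points that cover counting error only. DPBS replicate 1 and FAPi replicate 2 were closest to each other. Against Srsf3 there were 0.865, 0.682 and 1.12 Srsf10 counts per count in DPBS libraries and 1.64, 1.74, 2.24 and 2.84 in FAPi libraries. Against Srsf6 there were 1.25 to 2.09 in DPBS and 3.49 to 5.20 in FAPi libraries. None of these ratios overlapped between groups, and all of them contain the Srsf10 counts that brought the family into view. Against Srsf2, the most abundant member, the groups did overlap. DPBS replicate 1 had 1792 Srsf10 and 6083 Srsf2 counts, a higher ratio than FAPi replicate 2 with 3412 and 20683 counts.

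**Figure D2:**
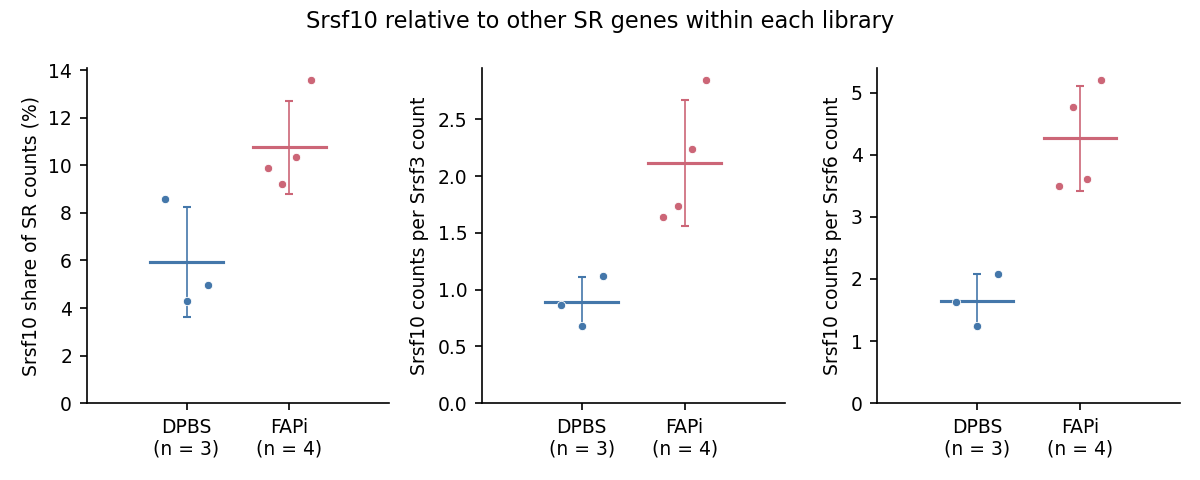
Srsf10 relative to other SR genes within each library, as percent of all SR counts (left), counts per Srsf3 count (middle) and counts per Srsf6 count (right), with points for libraries, lines at the means and bars of 1 SD. All 4 FAPi points (red) lie above all 3 DPBS points (blue) in each panel.

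Srsf2 (ENSMUSG00000034120.18, chr11:116849901-116853094, mm10) encodes SC35, which binds exonic enhancers and also helps RNA polymerase II to leave its promoter-proximal pause. It had the highest mean of the members in both groups, with 542.6, 1013 and 1503 CPM in DPBS replicates 1 to 3. FAPi replicates 1 to 4 had 1462, 2662, 1766 and 1435 CPM. The groups overlapped, because DPBS replicate 3 stood above FAPi replicates 1 and 4. The means were 1020 ± 480 CPM (SD, n = 3) and 1831 ± 574 CPM (SD, n = 4), and the log2 difference was 0.85 ± 0.35 (SE). It was 0.53 without DPBS replicate 1 and 0.60 without FAPi replicate 2, the lowest and the highest library. Srsf2 alone supplied 29.2% to 55.8% of all SR counts.

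The Srsf2 locus is shared with other genes. Mettl23 and Mfsd11 are annotated on the opposite strand, where 460 and 288 bases of their exons coincide with exons of Srsf2. The sources used here do not say whether the counting used strand, so reads in these bases cannot be assigned with certainty. Mettl23, which encodes a methyltransferase-like protein, had 22.3, 29.9 and 32.5 CPM in DPBS and 7.37, 14.0, 9.51 and 15.4 CPM in FAPi replicates. Mfsd11, which encodes a predicted membrane transporter, had 28.7, 32.0 and 36.7 CPM in DPBS and 15.5, 8.75, 20.3 and 11.5 CPM in FAPi replicates. Both neighbours stood lower in every FAPi library, opposite in direction to the Srsf2 estimate. Neither passed the edgeR test over all genes, with log2 differences of -1.28 ± 0.46 (adjusted p = 0.516) and -1.21 ± 0.45 (adjusted p = 0.524).

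The sequence just upstream of Srsf2 is printed because it adjoins an exon of Mfsd11 on the other strand. Mfsd11 is annotated from position 116852440, inside Srsf2, and the annotated spans of Mfsd11 and Mettl23 both cover the printed bases. The 200 bases before the RefSeq start of Srsf2 (chr11:116853095-116853294, minus strand, from RefSeq on GRCm38.p6) hold no annotated exon. Capitals mark matches, on either strand, to GGGCGG (the GC box), CCAAT and TATAAA, with overlapping GC boxes merged.
Srsf2 upstream: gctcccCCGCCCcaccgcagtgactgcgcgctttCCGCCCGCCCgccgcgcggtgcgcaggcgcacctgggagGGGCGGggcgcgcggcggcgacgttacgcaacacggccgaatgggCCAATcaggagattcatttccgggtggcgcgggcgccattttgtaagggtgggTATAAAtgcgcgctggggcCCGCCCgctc
The 10 members have 13 windows of 250 bases upstream, and a member counts if any of its windows holds the motif. GGGCGG occurred in 12 of the 13 windows, from 9 members, and in 32.7% of all 32851 RefSeq windows. The Srsf10 window lies wholly in annotated exon of Srsf10 itself. In the Srsf1 window 238 bases are exon of 2010015M23Rik. The members' windows were 56.8% to 78.0% G and C, against a median of 52.4%. CCAAT was found for 3 members and in 33.8% of all windows, and TATAAA for 2 members and in 12.4%. CCGGAAGT, an ETS factor core, was found for 3 members and in 2.88% of windows. CACGTG, the E-box, and TGACGTCA, the cyclic AMP response element, were not found in the members' windows, and 6.02% and 1.55% of all windows hold them.

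**Figure D3:**
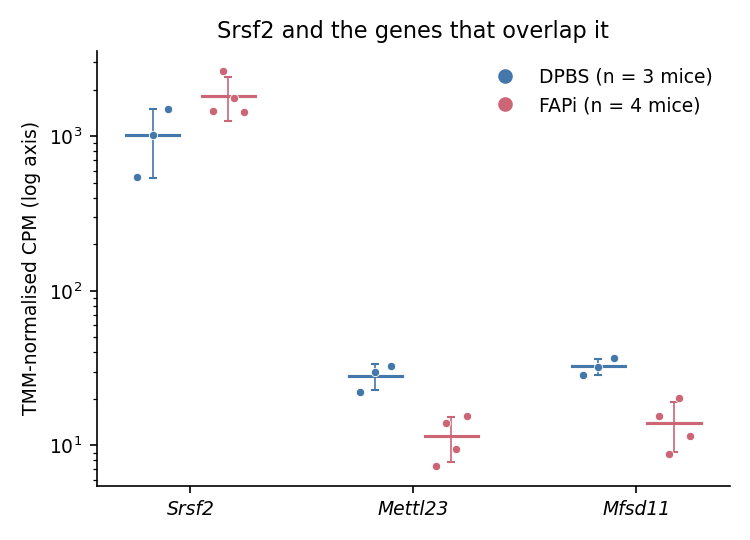
TMM-normalised CPM (log axis) of Srsf2 and of the genes on the opposite strand that share exon bases with it, per library, with lines at the means and bars of 1 SD. Srsf2 overlaps between DPBS (blue, n = 3) and FAPi (red, n = 4), whereas Mettl23 and Mfsd11 lie lower in all FAPi libraries.

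The other 7 tested members had log2 differences within 0.4 of 0. Srsf1, a general splicing activator, had 56.6, 35.3 and 65.8 CPM in DPBS and 78.6, 56.2, 91.5 and 44.8 CPM in FAPi replicates (log2 difference 0.37 ± 0.38). Srsf3, whose product links splicing to mRNA export, had 184.8, 175.8 and 123.9 CPM in DPBS and 188.4, 252.8, 163.9 and 146.9 CPM in FAPi replicates (0.22 ± 0.28). Srsf11, which encodes a partner of the U2AF splice-site factor, had 520.9, 1057 and 666.2 CPM in DPBS and 725.7, 1025, 768.8 and 713.9 CPM in FAPi replicates (0.11 ± 0.28). Each difference was smaller than its standard error, and the groups overlapped at all 3 genes. Gm43362 lies inside the Srsf11 locus and shares no exon bases with it, and Gm11508, which shares 98 exon bases with Srsf1, had 0 counts in every library.

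Srsf5 and Srsf6 encode the related proteins SRp40 and SRp55, both of which can activate weak exons. Srsf5 ranged from 123.0 to 161.7 CPM in DPBS and from 106.6 to 184.3 CPM in FAPi libraries, with a log2 difference of -0.11 ± 0.29. Srsf6 ranged from 66.5 to 98.3 CPM in DPBS and from 80.3 to 101.7 CPM in FAPi libraries, with 0.06 ± 0.29. For both, the FAPi range covered most of the DPBS range. Srsf7, which carries a zinc knuckle and like Srsf3 serves as an export adaptor, had 91.0, 84.6 and 70.3 CPM in DPBS libraries. FAPi replicates 1 to 4 had 106.7, 62.8, 63.9 and 63.2 CPM, so that 3 of them lay below all DPBS libraries and replicate 1 lay above. Srsf9, the member with the fewest arginine and serine pairs per codon, ranged from 42.4 to 61.6 CPM in DPBS and from 39.9 to 61.5 CPM in FAPi libraries. The log2 differences were -0.14 ± 0.32 for Srsf7 and -0.01 ± 0.34 for Srsf9.

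Srsf4, which encodes SRp75, was nearly undetected. Its counts were 11, 1 and 2 in DPBS and 1, 14, 5 and 0 in FAPi replicates, or 0 to 1.80 CPM, at or near the floor of 3 counts except in DPBS replicate 1 and FAPi replicates 2 and 3. It was the 1 member left out by the filter on low counts, so no difference was fitted. The gene overlaps Gm12992 on the opposite strand over 1532 of its 3561 exon bases, and A930004J17Rik inside an intron. These had 0.947 to 8.62 CPM and 4.37 to 66.0 CPM, more than Srsf4 in every library except Gm12992 in FAPi replicate 2. Srsf12, a relative of Srsf10 outside the 10 members, had 0 counts in all 7 libraries.

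Over the 9 members that passed the filter, 6 estimates were higher and 3 lower in FAPi mice, with a median log2 difference of 0.11, and 50.6% of all tested genes were estimated higher. No member passed the edgeR quasi-likelihood test at an adjusted p under 0.05, as did 0% of the 12930 genes tested. At an unadjusted p under 0.05 there were 2 members, Srsf10 and Srsf2, both higher, against 8.14% of all genes (4.45% higher and 3.69% lower). DESeq2 called 1 member, Srsf10, against 1.04% of all genes (0.65% higher and 0.394% lower). Separation of all FAPi from all DPBS libraries was seen at 1 member, again Srsf10, and at 7.34% of all genes (3.39% higher and 3.95% lower). These counts rest on the comparison that selected the family, and nothing is read from them. All 9 members had at least 322 counts in every library, so none entered through 1 group alone.

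**Figure D4:**
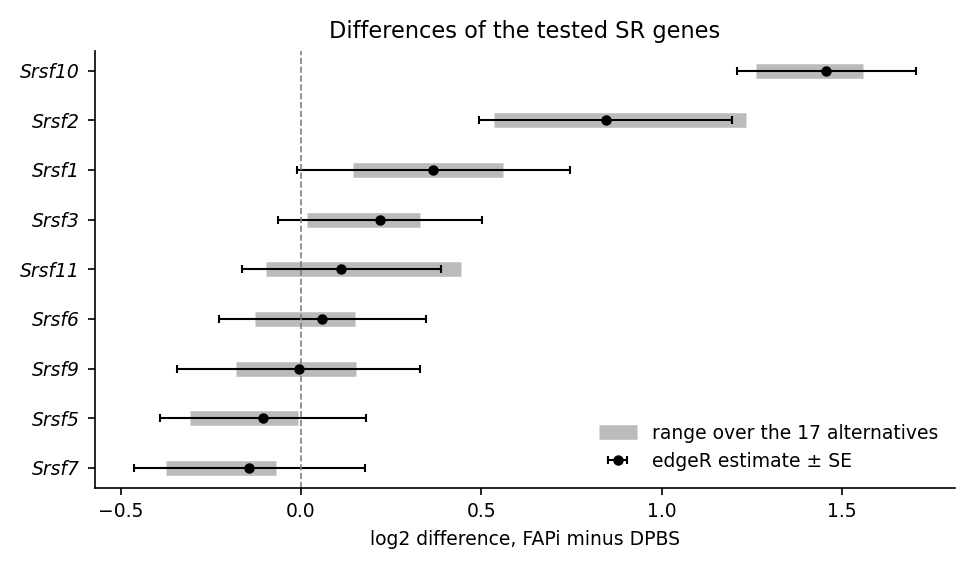
Log2 differences (FAPi minus DPBS) of the 9 tested SR genes, with points and bars for the edgeR estimate ± SE and grey bars for the range over the 17 alternative settings. Srsf10 and Srsf2 lie furthest to the right at 1.46 and 0.85, and the other 7 lie within 0.4 of 0.

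The summed level of the family was 1859 to 2806 CPM in DPBS and 3073 to 4767 CPM in FAPi libraries, without overlap. This sum contains Srsf10, which brought the family into view, and with Srsf10 taken out the groups overlapped. Srsf10 supplied 418 of the 3073 CPM in FAPi replicate 4 and 139 of the 2806 CPM in DPBS replicate 3. Members without Srsf2, Srsf10 and Srsf11 overlapped as well. These 7 summed to 498 to 636 CPM in DPBS and 506 to 646 CPM in FAPi libraries. The median SD of log2 CPM among the 9 tested members was 0.31 in DPBS and 0.34 in FAPi libraries, against 0.65 and 0.75 over all 12930 tested genes. Srsf2 was an exception in DPBS mice, with an SD of 0.74. The part of abundance in these spreads was not tested.

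Genes whose profile over the 7 libraries was most like that of Srsf10 were found by the root mean square distance between centred log2 CPM profiles among 9601 candidates. Idnk, which encodes a gluconate kinase, was nearest at 0.25 log2 units, with 123 to 156 CPM in DPBS and 258 to 479 CPM in FAPi libraries. Klhl29, Ncoa3, Kif3a and Tulp4 followed at 0.26 to 0.27. Ncoa3, a nuclear receptor coactivator gene that shares 154 exon bases with Sulf2, had 113 to 132 CPM in DPBS and 352 to 532 CPM in FAPi libraries. Kif3a, a kinesin motor subunit gene, had 23.7 to 30.6 and 54.6 to 85.0 CPM. All 5 were higher in each FAPi library than in any DPBS library, as the choice by likeness to Srsf10 entails. Among SR genes Srsf2 was nearest at 0.58, with 509 candidates closer, and Srsf7 farthest at 0.90.

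Lists of other splicing genes showed no member past the threshold. They comprised 163 genes in 6 lists, of which 150 were tested, and 0 rose and 0 fell (edgeR, adjusted p under 0.05), as for 0% of all genes. At an unadjusted p under 0.05 there were 9 higher and 7 lower, or 10.7% against 8.14% of all genes. Of the 150, 85 were estimated higher (56.7%, against 50.6% of all genes), and the median log2 difference was 0.12, against 0.0082 over all tested genes. DESeq2 called 0 higher and 2 lower, Prpf4 and Mbnl3. The groups did not overlap at 13 of the 150 genes, and at 7.34% of all genes. The genes named below have the smallest p per direction in their list, a choice that favours separated groups.

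SR-related genes encode cofactors with similar tails, and 21 of 31 tested were estimated higher (median log2 difference 0.18). Arglu1, a splicing modulator gene that contains the microRNA gene Mir7654, had 881, 1371 and 1526 CPM in DPBS and 1935, 3521, 2285 and 1675 CPM in FAPi replicates. Its log2 difference was 0.90 ± 0.30 (adjusted p = 0.490, edgeR), and it was 0.63 without FAPi replicate 2. Scaf11, whose product binds the tails of SR proteins, had 123 to 182 CPM in DPBS and 58.9 to 107 CPM in FAPi libraries (-0.93 ± 0.30, adjusted p = 0.490). Neither passed the threshold. The groups did not overlap at either gene, which the choice by smallest p favours. The summed level of this list was 8643 to 10400 CPM in DPBS and 10525 to 12095 CPM in FAPi libraries, but overlapped on the scale of the deposited CPM.

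Of the kinases, phosphatases and transport factors of SR proteins, 10 of 13 tested genes were estimated higher, with a median log2 difference of 0.28. Clk1, a kinase that phosphorylates the SR tail, had 165, 230 and 184 CPM in DPBS and 421, 288, 268 and 330 CPM in FAPi replicates. Every FAPi library was above each DPBS library, and the log2 difference was 0.76 ± 0.26 (adjusted p = 0.496, edgeR). Nxf1, the mRNA export receptor to which Srsf3 and Srsf7 bind, had 157 to 241 CPM in DPBS and 111 to 166 CPM in FAPi libraries (-0.45 ± 0.27). The summed level of the list was 1253 to 1527 CPM in DPBS and 1621 to 1966 CPM in FAPi libraries. It was also without overlap on the scale of the deposited CPM, at 1484 to 1540 and 1597 to 1760 CPM. Sums of the hnRNP genes (2768 to 3097 and 2985 to 4097 CPM), the core spliceosome (2399.8 to 2573 and 2162 to 2465 CPM) and the other regulators (1935 to 2611 and 2168 to 2400.4 CPM) overlapped between DPBS and FAPi libraries. The sum of the NMD and exon junction genes did not (943 to 1055 and 1081 to 1579 CPM), but did on the scale of the deposited CPM.

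The hnRNP genes, whose products often oppose SR proteins at exons, were evenly divided, with 14 of 28 estimated higher and a median of 0.06. Hnrnpul1 had 103 to 124 CPM in DPBS and 163 to 330 CPM in FAPi libraries (log2 difference 1.07 ± 0.29, adjusted p = 0.470, edgeR). Pcbp2, the lowest-p gene in the other direction, had -0.80 ± 0.62, which was -0.05 without DPBS replicate 1, and shares exon bases with other genes. In the core spliceosome 19 of 39 genes were estimated higher, with a median of -0.05. Prpf4, a component of the U4/U6 particle, had 162, 30.1 and 199 CPM in DPBS and 10.4, 14.3, 27.7 and 25.6 CPM in FAPi replicates. Every FAPi library was below every DPBS library, narrowly so against DPBS replicate 2. The log2 difference was -2.74 ± 0.60 (adjusted p = 0.410 with edgeR and 0.00247 with DESeq2). Sf3a3, a U2 particle gene, had 1.02 ± 0.52 with overlap between the groups, and 0.62 on the deposited CPM with a pseudocount of 1.

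Among other splicing regulators 13 of 22 tested genes were estimated higher (median 0.07). Khdrbs1, which encodes the RNA-binding protein Sam68, had 49.95 to 85.4 CPM in DPBS and 113 to 269 CPM in FAPi libraries (1.31 ± 0.37, adjusted p = 0.483, edgeR). Mbnl3, a muscleblind gene, had 128, 70.8 and 7.79 CPM in DPBS and 5.50, 9.01, 6.38 and 8.06 CPM in FAPi replicates. DPBS replicate 3 lay within the FAPi range, and the log2 difference of -3.25 ± 0.72 had an adjusted p of 0.424 with edgeR and 0.00182 with DESeq2. Without DPBS replicate 3 it was -3.77, and edgeR then called it (adjusted p = 0.0447). Erythroid markers summed to 1632 CPM in that replicate, against 6066 and 15078 CPM in DPBS replicates 1 and 2. Neutrophil markers summed to 597.8 CPM there, against 1744 and 2596 CPM. The part of such cells in the Mbnl3 difference was not tested. Genes of NMD and the exon junction complex, which act on the NMD isoforms of SR transcripts, had 8 of 17 estimates higher and a median of -0.02. Upf1, the central NMD helicase gene, had 140 to 168 CPM in DPBS and 208 to 608 CPM in FAPi libraries (1.13 ± 0.38, adjusted p = 0.494, edgeR), and 0.64 without FAPi replicate 2. Upf1 shares 68 exon bases with neighbours on the other strand. Smg8, which encodes a regulator of the Smg1 kinase, had -1.0 ± 0.55, and -0.57 without DPBS replicate 3.

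**Figure D5:**
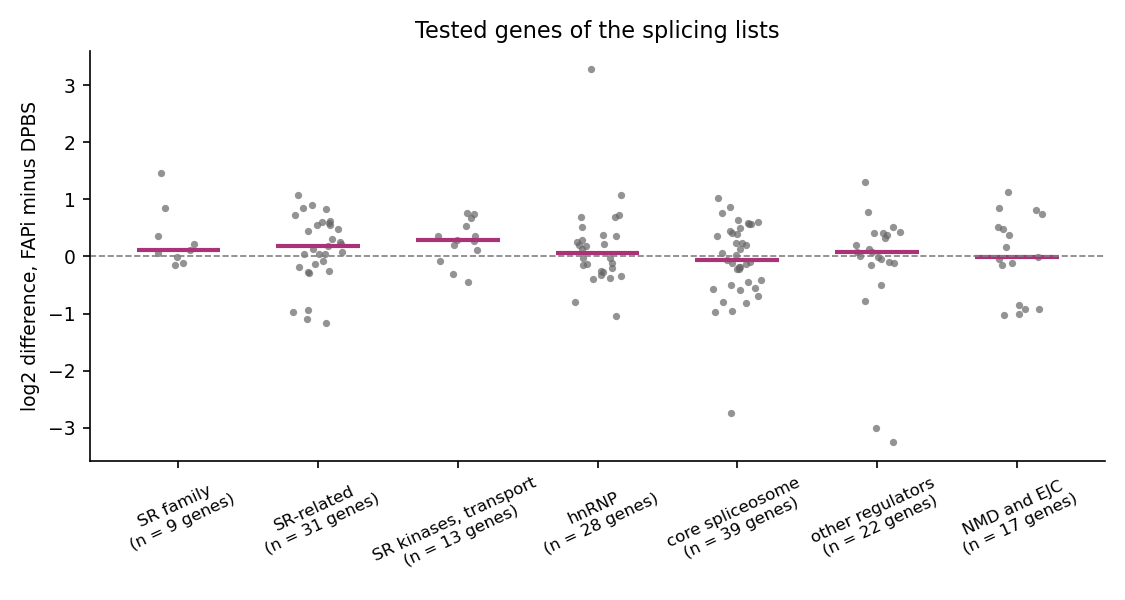
Log2 differences (FAPi minus DPBS) of every tested gene in the SR family and in 6 lists of other splicing genes, 1 point per gene, with a line at each list's median. The medians lie between -0.05 and 0.28, the lowest 3 points are Mbnl3, Celf2 and Prpf4, and the highest is Ptbp1 at 3.27. Neither Celf2 nor Ptbp1 passed an adjusted p under 0.05 with edgeR or DESeq2.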

How the data were processed

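Per the submitters' processing notes, STAR, HTSeq and the mouse build mm10 were used, without versions. Reads were 150 bases, paired, per the labels' protocols. Deposited by the authors were whole-number gene counts and CPM values for each library. Those CPM values equal the count over the library total to within 4.55e-05, and lines repeated in 6 of the 7 CPM tables were used once. The count tables carry the tag rmdup, which no protocol explains. The sources used here name neither the annotation nor the strandedness used in counting. Of 53801 gene IDs, 53620 matched GENCODE M21 on the same build.

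Counts were fitted in R 4.3.3 with edgeR 4.0.16: filterByExpr with a minimum count of 10, TMM factors, and the robust quasi-likelihood test on all 7 libraries, with Benjamini-Hochberg adjustment over 12930 genes and a threshold of 0.05. The SE is the absolute log2 difference over the square root of F. CPM values are TMM-normalised on library totals unless called deposited. The p-values measure the spread between these libraries, 1 per mouse. The functions were tested on simulated data. DESeq2 1.42.0 and limma 3.58.1 served as alternatives.

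Members and lists were chosen with earlier results of these data known. The named genes were the members, the 5 profiles nearest to Srsf10, the gene of smallest p per direction in each list (at least 5 CPM), genes overlapping a member, Fap and cell type markers. Actb, Srsf12, Celf2, Ptbp1 and neighbours named only as sharing bases were added after their values were seen. No pair of replicates agreed within sampling noise. Equal replicate numbers did not deviate together (correlations of -0.01, -0.02 and -0.05 across genes).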

Additional observations from a re-analysis of the deposited data

Results flagged for a closer look

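For 38 genes, sums and shares, the FAPi libraries were screened for 1 that stood apart from the rest, as the gap to its nearest neighbour over the whole range, set against Dixon's 95% critical value. The check marked 2, and chance marks about 1 in 20, or 1.9. Srsf7 stood at 107 CPM in FAPi replicate 1, against 62.8 to 63.9 CPM in the others (ratio 0.975). In the same library the endothelial markers summed to 357 CPM, against 19.0 to 59.5 CPM in the other 6 libraries, and their part in the Srsf7 value was not tested. Upf1 stood at 608 CPM in FAPi replicate 2, against 208 to 270 CPM in the others (ratio 0.844). The 3 DPBS libraries were too few for this check.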

How the results depend on the processing

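All 153 log2 differences of members under the 17 alternatives stayed within 1 SD of the spread between replicates. Srsf10 ranged from 1.26 (library totals without TMM) to 1.56, and Srsf2 from 0.53 to 1.23. The estimate changed sign under some alternatives for Srsf6 (-0.13 to 0.15), Srsf9 (-0.18 to 0.15) and Srsf11 (-0.10 to 0.44), and for none of the other 6. Library totals without TMM moved the median of all genes to -0.16. The members estimated higher were fewest at 4 of 9, with library totals without TMM and with limma on deposited CPM. They were most at 8 of 10 without DPBS replicate 2, where Srsf4 passed the filter. For the other lists, genes estimated higher were counted in the main fit only. The cause of the changes was not tested. Over all genes edgeR called 0 in either direction, with 1053 at unadjusted p under 0.05. DESeq2 called 84 up and 51 down (663 adjusted p-values NA). Dropping the low-count filter yielded 5 up and 1 down, voom weights 1 up, and limma on deposited CPM 2 up with each pseudocount. When single libraries were left out, calls ranged from 0 to 2 up and 0 to 1 down, and all arose without DPBS replicate 3. Among other splicing genes DESeq2 called 2 down, and omitting single libraries 0 to 1 (Mbnl3). The replicate block gave 0 calls, and 1.41 for Srsf10. Precision is limited by 3 against 4 libraries and, for Srsf4, by low counts whose cause was not tested.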
